A study of Homo sapiens with 12 samples.

Results

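The genes described here encode laminin 332, a laminin of epithelial basement membranes, and the hemidesmosome, the junction that holds epithelial cells to it. The 8 genes were chosen by symbol: LAMA3 and LAMB3 (laminin chains), ITGA6 and ITGB4 (the integrin receptor), COL17A1 (a transmembrane collagen), DST and PLEC (the plakins dystonin and plectin) and CD151 (a tetraspanin). Of these, 6 were matched to probe sets that name exactly 1 gene, with 21 probe sets in all, among 19775 genes analysed on the arrays. LAMA3 and COL17A1 were not analysed here.

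RNA was measured on 12 Affymetrix arrays from the human pancreatic cancer cell lines L3.6pl and FG, a pair that the series title describes as differing in metastatic potential. Each line was grown from frozen stock, usually for 9 days, in serum-containing medium. There were 3 arrays in each of 4 groups: L3.6pl in hypoxia, L3.6pl in normoxia, FG in hypoxia and FG in normoxia. Hypoxia was 1% oxygen for the last 24 h of culture, with nitrogen in place of air, and the normoxia cultures were left untreated. The labels name no genetic change or drug in any group. They do not say whether replicates were separate cultures, so p-values measure only the spread between these arrays. In RNA from whole cultures, fewer cells of a type and less RNA per cell cannot be told apart.

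In a hemidesmosome, integrin α6β4 binds laminin 332 outside the cell, and plectin and the epithelial isoform of dystonin link the integrin to keratin filaments inside. CD151 associates laterally with laminin-binding integrins. In carcinomas these proteins are known for roles both in anchorage and in migration on laminin.

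The letters before the transcript starts of LAMB3, ITGA6 and DST are printed because these 3 genes stood for the ligand, the receptor and the plakins in the results that follow. Each sequence is the 250 bases before a RefSeq transcript start in GRCh38.p14, written 5′ to 3′ on the strand of the gene. Capitals mark matches, on either strand, to TGANTCA, the motif of AP-1 (the JUN and FOS family factors), or to ACGTG and GCGTG, forms of the hypoxia response element core. RefSeq lists several starts for each of these genes, with 3 windows for LAMB3, 2 for ITGA6 and 3 for DST, and for each gene 1 window with matches is printed. The LAMB3 window shown is chr1:209651375-209651624 on the minus strand, the ITGA6 window shown is chr2:172427086-172427335 on the plus strand, and the DST window shown is chr6:56954831-56955080 on the minus strand.
LAMB3: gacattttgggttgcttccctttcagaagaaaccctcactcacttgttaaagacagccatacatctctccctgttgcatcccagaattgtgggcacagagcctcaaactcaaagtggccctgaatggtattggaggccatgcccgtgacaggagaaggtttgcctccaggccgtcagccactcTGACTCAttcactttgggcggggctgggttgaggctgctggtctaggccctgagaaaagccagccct
ITGA6: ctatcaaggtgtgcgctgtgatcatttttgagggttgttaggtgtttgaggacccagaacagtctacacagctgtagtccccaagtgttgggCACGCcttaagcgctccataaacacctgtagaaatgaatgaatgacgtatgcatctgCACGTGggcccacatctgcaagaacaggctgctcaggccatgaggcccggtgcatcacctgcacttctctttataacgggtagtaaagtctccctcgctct
DST: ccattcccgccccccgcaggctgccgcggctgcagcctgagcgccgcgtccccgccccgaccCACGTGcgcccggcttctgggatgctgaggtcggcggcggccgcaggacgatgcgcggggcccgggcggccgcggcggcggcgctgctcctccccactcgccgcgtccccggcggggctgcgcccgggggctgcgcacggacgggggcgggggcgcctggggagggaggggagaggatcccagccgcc
In the LAMB3 window the capitals are 1 TGANTCA match, 67 bases before the start. In the ITGA6 window they are ACGTG on both strands, overlapping in a palindrome at 101 and 100 bases before the start, and GCGTG at 158. In the DST window they are ACGTG on both strands at 188 and 187 bases, overlapping in the same way. The other 2 windows of LAMB3 and the other 2 of DST held no match to any of the 3 motifs, and the other ITGA6 window held 1 ACGTG match, 169 bases before its start. RefSeq windows were listed for 5 of the 8 genes, 10 windows in all. TGANTCA was in 2 of these 10 windows and in 6.57% of all 35116 human windows of this length. ACGTG was in 3 of the 10 and in 18.5% of all windows, and GCGTG was in 1 of the 10 and in 32.2% of all. The other TGANTCA window was that of LAMA3, with matches at 125 and 69 bases before the start. A match is a run of letters, with no binding measured here.

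Both lines carried the markers of epithelial cells. All 7 epithelial markers were measured, and their mean ran from 10.7 to 11.4 over the 12 arrays (log2 intensity). The median gene stood at 6.30. Blood, endothelial and pancreatic endocrine or acinar lists had array means of at most 5.57, although the endothelial marker PECAM1 averaged 8.16 in L3.6pl hypoxia, 7.38 in L3.6pl normoxia, 7.18 in FG hypoxia and 6.70 in FG normoxia. In the fibroblast list COL1A1 averaged 9.49 in L3.6pl hypoxia and 8.75 in L3.6pl normoxia, against 10.9 in FG hypoxia and 9.73 in FG normoxia. COL3A1 of the same list averaged 5.69 in L3.6pl hypoxia and 5.60 in L3.6pl normoxia, against 10.6 in FG hypoxia and 11.02 in FG normoxia, while LUM and DCN averaged at most 5.31 in every group. All 5 hypoxia check genes (NDRG1, ADM, EGLN3, SLC2A1 and ANGPTL4) rose in hypoxia in both lines. FG normoxia replicate 1, L3.6pl hypoxia replicate 3 and L3.6pl normoxia replicate 1 were the highest arrays in both signs of RNA quality that the control probe sets give. L3.6pl normoxia replicate 1 was so by the least. The control probe sets for the 3′ and 5′ ends of actin differed by 1.14, 1.34 and 0.87 on them (log2, 3′ minus 5′), and by 0.34 to 0.71 on the other 9 arrays. Those for GAPDH differed by 0.013, -0.032 and -0.093 on the same 3 arrays, and by -0.18 to -0.12 on the other 9.

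**Figure D1:**
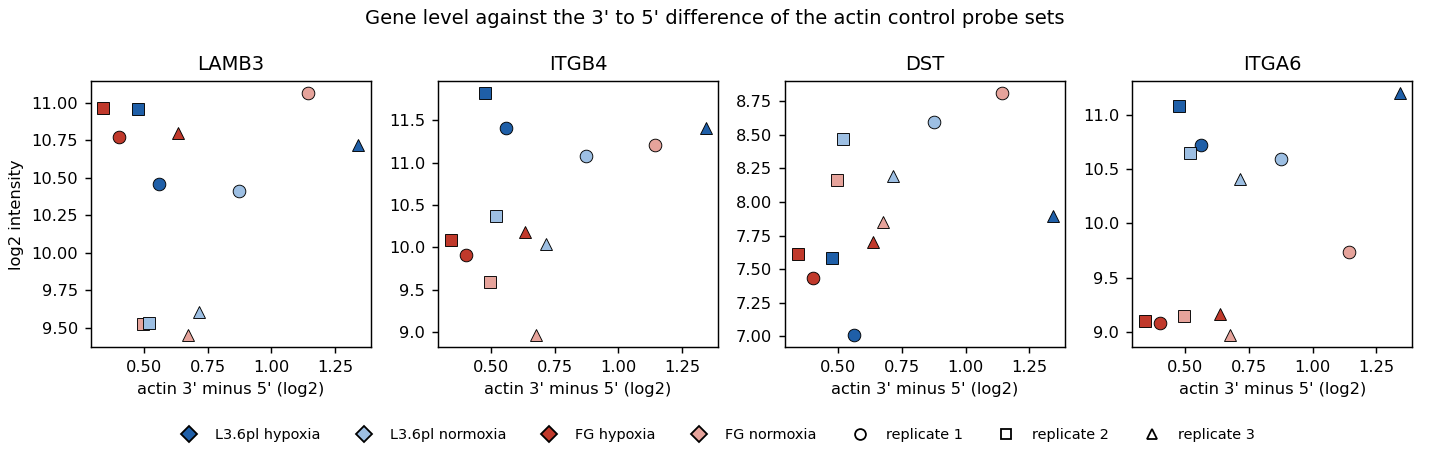
The actin 3′ minus 5′ difference of each array (log2) is plotted against that array's LAMB3, ITGB4, DST and ITGA6 level (log2 intensity), a panel each, with 1 point an array, colours for the 4 groups and marker shapes for the replicate numbers. FG normoxia replicate 1, L3.6pl hypoxia replicate 3 and L3.6pl normoxia replicate 1 lie farthest to the right, at 1.14, 1.34 and 0.87.

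The integrin chain ITGA6 was the hemidesmosome gene that separated the lines: it was higher in L3.6pl in hypoxia and in normoxia, and without pairing by replicate number it was the only one of the 6 to pass the test in any of the 5 comparisons made. Called means a limma adjusted p below 0.05 over all 19775 genes. In hypoxia against normoxia none of the 6 was called in L3.6pl, where 6.86% of all genes were called, and none in FG, where 10.7% were. At an unadjusted p below 0.05 the counts were 4 of 6 in L3.6pl, against 21.3% of all genes, and 1 of 6 in FG, against 23.3% of all genes. Between the lines 1 of 6 was called higher in L3.6pl in hypoxia, where 16.7% of all genes were called and 10% were called higher. In normoxia 1 of 6 was called higher, where 10.7% of all genes were called and 5.16% were called higher. No difference between the lines in the size of the hypoxia change was called for the 6, and 0.0253% of all genes were. For that difference 1 of 6 had an unadjusted p below 0.05, against 7.22% of all genes. These counts come from the fit without pairing by replicate number. With the replicate number as a block within each oxygen condition, a fit chosen after seeing the data, 3 of 6 were called between the lines in hypoxia (ITGA6, ITGB4 and PLEC) and 1 of 6 in normoxia (ITGA6). That fit also called more genes over the whole array, 5935 of 19775 in hypoxia and 4576 in normoxia.

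**Figure D2:**
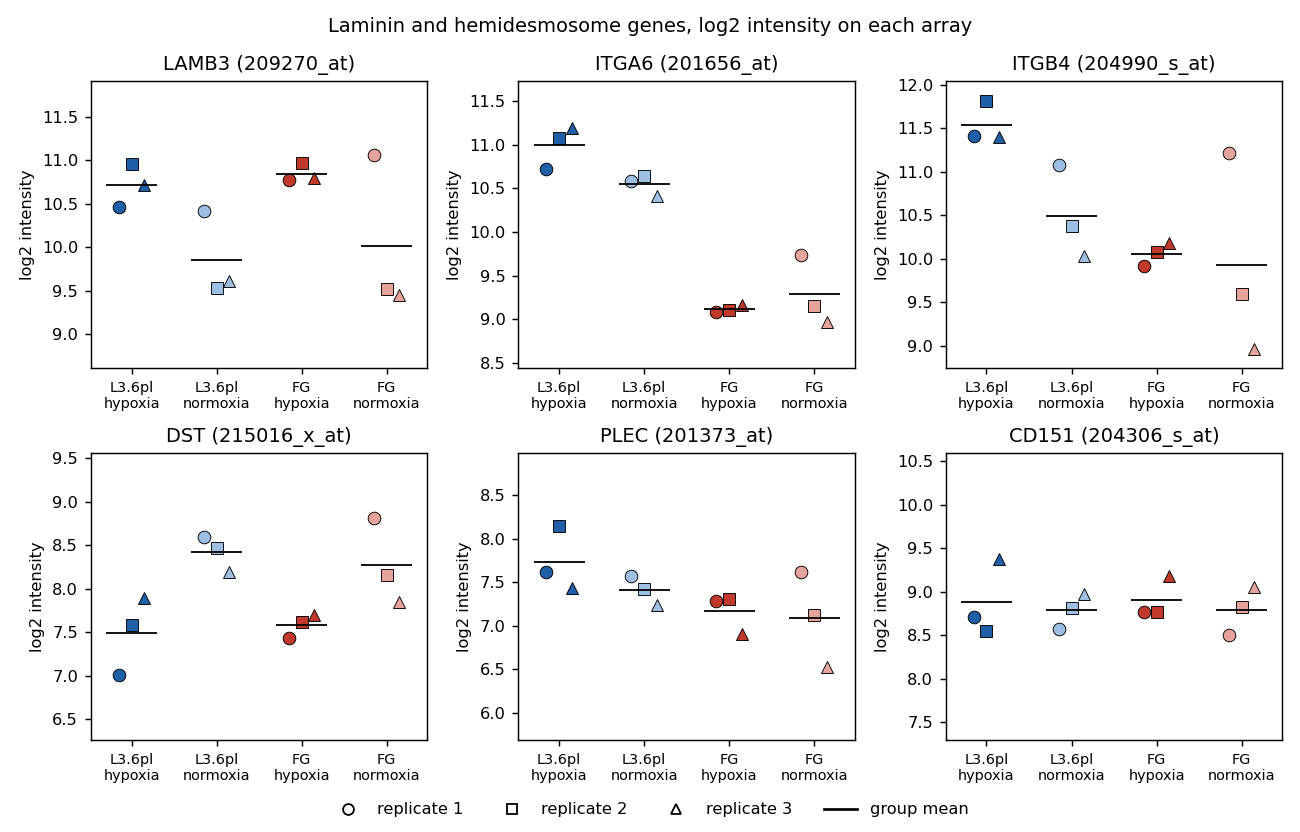
Each panel shows 1 of the 6 genes, with the log2 intensity of the probe set used on every array, the 3 arrays of each of the 4 groups as points with marker shapes for the replicate number, and a bar at the group mean. ITGA6 is at 10.41 or more on all L3.6pl arrays and at most 9.74 on all FG arrays, while the CD151 groups overlap.

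LAMB3 encodes the β3 chain of laminin 332. Its level was 10.46, 10.96 and 10.72 in L3.6pl hypoxia (log2 intensity, replicates 1 to 3), against 10.41, 9.54 and 9.61 in L3.6pl normoxia. It was 10.77, 10.96 and 10.80 in FG hypoxia, against 11.06, 9.52 and 9.45 in FG normoxia. The hypoxia arrays were all above the normoxia arrays in L3.6pl, and above replicates 2 and 3 but below replicate 1 in FG. The difference, hypoxia minus normoxia, was 0.86 ± 0.382 in L3.6pl (log2 ± SE, a fold of 1.81, adjusted p = 0.226) and 0.83 ± 0.382 in FG (a fold of 1.78, adjusted p = 0.222). Neither passed the test. Leaving out FG normoxia replicate 1, 1 of the 3 arrays with a high actin difference, changed both calls. The differences were then 0.86 in L3.6pl (adjusted p = 0.0335) and 1.36 in FG (adjusted p = 0.00773), both called. That array is not in the L3.6pl comparison, whose difference did not move. It bears on that p-value through the spread that is estimated over all arrays. Without FG normoxia replicate 3 the FG difference was 0.55 (adjusted p = 0.514). Without all 3 arrays they were 1.14 (adjusted p = 0.00157) and 1.36 (adjusted p = 0.000454). With the actin difference as a covariate they were 0.78 (adjusted p = 0.204) and 1.10 (adjusted p = 0.109), and no call was made. Between the lines LAMB3 differed by -0.13 ± 0.382 in hypoxia (95% interval -0.98 to 0.71) and by -0.16 ± 0.382 in normoxia (95% interval -1.01 to 0.68), L3.6pl minus FG, with overlapping arrays in both conditions.

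ITGA6 encodes the integrin α6 chain, which pairs with β4 in hemidesmosomes and with β1 in other laminin receptors. Its level was 10.72, 11.08 and 11.20 in L3.6pl hypoxia, against 9.08, 9.10 and 9.17 in FG hypoxia. In normoxia it was 10.59, 10.64 and 10.41 in L3.6pl, against 9.74, 9.15 and 8.97 in FG. Every L3.6pl array was above every FG array, and the order of the group means was L3.6pl hypoxia, L3.6pl normoxia, FG normoxia and FG hypoxia. ITGA6 was 3.69-fold higher in L3.6pl in hypoxia (log2 1.88 ± 0.185, adjusted p = 8.23e-05) and 2.40-fold higher in normoxia (log2 1.26 ± 0.185, adjusted p = 0.00144). Both calls held in all 24 other ways of processing the data that were tried for each. The probe set 215177_s_at, a second measure of the gene, was also higher in L3.6pl, by 1.70 in hypoxia (adjusted p = 0.00115) and by 1.57 in normoxia (adjusted p = 0.00292), with p adjusted over all probe sets.

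Within the lines, ITGA6 did not pass the test for oxygen. In L3.6pl all hypoxia arrays were above the normoxia arrays, by 0.45 ± 0.185 on average (adjusted p = 0.188), and in FG the groups overlapped, at -0.17 ± 0.185 (adjusted p = 0.686). The second probe set was at 10.64, 10.86 and 9.67 in L3.6pl hypoxia, against 10.23, 10.25 and 10.12 in L3.6pl normoxia, so there the groups overlapped. The 9.67 came from replicate 3, the array with the highest actin difference. The hypoxia change in L3.6pl minus that in FG was 0.62 ± 0.262 (adjusted p = 0.648).

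ITGB4 encodes the β4 chain, whose long cytoplasmic tail binds plectin. Its level was 11.41, 11.82 and 11.40 in L3.6pl hypoxia, against 9.91, 10.08 and 10.18 in FG hypoxia. In normoxia it was 11.08, 10.37 and 10.04 in L3.6pl, against 11.21, 9.60 and 8.97 in FG. In hypoxia all L3.6pl arrays were above all FG arrays. That difference was 2.79-fold (log2 1.48 ± 0.464, adjusted p = 0.0517) and just missed the threshold. In normoxia the difference was 0.57 ± 0.464 (adjusted p = 0.569), with the groups overlapping through the 11.21 of FG normoxia replicate 1. With the replicate number as a block within each oxygen condition, the difference in hypoxia was called (1.48, adjusted p = 0.000934) and that in normoxia was not (0.57, adjusted p = 0.0899). Without FG normoxia replicate 1 both were called, at 1.48 (adjusted p = 0.00266) and 1.21 (adjusted p = 0.0241). Without FG normoxia replicate 3 the hypoxia difference was called (1.48, adjusted p = 0.0242) while the normoxia difference was 0.09 (adjusted p = 0.955). The FG normoxia arrays enter the hypoxia comparison only through the shared spread. Averaged over all its probe sets, ITGB4 was at 0.83 in hypoxia (adjusted p = 0.00848), which was called, and at 0.35 in normoxia (adjusted p = 0.278). With the actin difference as a covariate the hypoxia value was 1.20 (adjusted p = 0.147), and no call was made.

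For oxygen, ITGB4 followed the same order in L3.6pl as LAMB3. All L3.6pl hypoxia arrays were above the normoxia arrays, by 1.05 ± 0.464 (a fold of 2.07, adjusted p = 0.224), and the value did not pass. It was called without FG normoxia replicate 1 (1.05, adjusted p = 0.0301), which left the L3.6pl difference as it was and changed the shared spread. It was also called without the 3 arrays with a high actin difference (1.41, adjusted p = 0.00271), and averaged over all its probe sets it was 0.74 and called (adjusted p = 0.0318). In FG the difference was 0.13 ± 0.464 (adjusted p = 0.916), and the 3 normoxia arrays lay further apart (SD 1.16) than the 3 hypoxia arrays (SD 0.134). Without the 3 arrays it was 0.78 in FG and called (adjusted p = 0.0278), and without FG normoxia replicate 3 alone it was -0.35 (adjusted p = 0.744). All 5 ITGB4 probe sets had a positive hypoxia difference in L3.6pl, of 0.18 to 1.11, and none of these was called. In FG all 5 were positive too, at 0.043 to 0.84, with none called. Probe sets 214292_at and 230704_s_at were dim, with means of 4.79 and 5.31 against 6.30 for the median gene. All 5 were also higher in L3.6pl than in FG in hypoxia, and 1 was called, 204989_s_at at 1.40 ± 0.313 (adjusted p = 0.0131). On that probe set the level was 9.76, 10.30 and 9.41 in L3.6pl hypoxia, against 8.49, 8.40 and 8.37 in FG hypoxia.

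**Figure D3:**
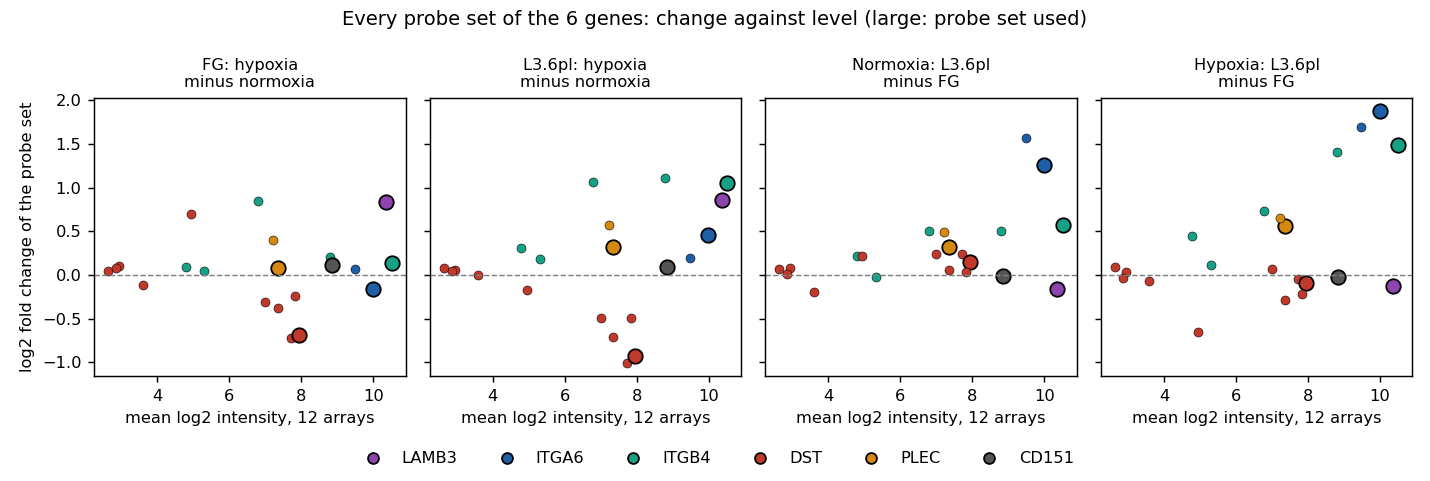
Each point is 1 of the 21 probe sets of the 6 genes, with its mean log2 intensity over the 12 arrays on the horizontal axis, its log2 fold change on the vertical axis, a panel for each of 4 comparisons and a large point for the probe set used for a gene. Both ITGA6 probe sets lie above 0 in the comparisons of the lines, at 1.88 and 1.70 in hypoxia. The DST probe sets spread over both sides of 0 in hypoxia against normoxia, with those above 0 at a mean intensity of 4.93 or less.

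CD151 encodes a tetraspanin that clusters laminin-binding integrins. Its level was 8.71, 8.54 and 9.38 in L3.6pl hypoxia, against 8.57, 8.82 and 8.97 in L3.6pl normoxia. It was 8.77, 8.77 and 9.18 in FG hypoxia, against 8.50, 8.83 and 9.05 in FG normoxia. The 4 groups overlapped throughout, and CD151 had the smallest range of the 6 over the 12 arrays, 0.88 on the log2 scale. The hypoxia differences were 0.09 ± 0.224 in L3.6pl (95% interval -0.40 to 0.59) and 0.11 ± 0.224 in FG (-0.38 to 0.61). The line differences were -0.03 ± 0.224 in hypoxia (-0.52 to 0.47) and -0.01 ± 0.224 in normoxia (-0.50 to 0.49). The signs of all 4 turned in at least 1 other way of processing, without a call.

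DST encodes dystonin, of which the epithelial isoform BP230 ties keratin filaments to the hemidesmosome. Its level was 7.01, 7.58 and 7.89 in L3.6pl hypoxia, against 8.60, 8.47 and 8.19 in L3.6pl normoxia. It was 7.44, 7.62 and 7.70 in FG hypoxia, against 8.81, 8.16 and 7.85 in FG normoxia. In both lines every hypoxia array was below every normoxia array, which was the opposite order to LAMB3 in L3.6pl. The difference was -0.93 ± 0.259 in L3.6pl (adjusted p = 0.0590) and -0.69 ± 0.259 in FG (adjusted p = 0.126), so that the level in normoxia was 1.90 and 1.61 times that in hypoxia, and neither passed. The L3.6pl value was called without FG normoxia replicate 1 (-0.93, adjusted p = 0.0213), without FG normoxia replicate 3 (-0.93, adjusted p = 0.0465) and without L3.6pl hypoxia replicate 3 (-1.13, adjusted p = 0.0218). The FG arrays enter it only through the shared spread. The L3.6pl value was also called with the actin difference as a covariate (-0.997, adjusted p = 0.0127) and without the 3 arrays with a high actin difference (-1.04, adjusted p = 0.00659). Other settings gave smaller values: -0.68 in L3.6pl without L3.6pl hypoxia replicate 1 (adjusted p = 0.184), and -0.42 in FG without FG normoxia replicate 1 (adjusted p = 0.316). Averaged over all 10 probe sets of the gene, dim ones included, DST was at -0.36 in L3.6pl (adjusted p = 0.144) and -0.15 in FG (adjusted p = 0.571). Between the lines DST differed by -0.09 ± 0.259 in hypoxia (95% interval -0.66 to 0.48) and by 0.15 ± 0.259 in normoxia (-0.43 to 0.72).

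The 10 DST probe sets did not all behave alike. In each line 6 of the 10 had a negative hypoxia difference. The values ran from -1.02 to 0.07 in L3.6pl and from -0.72 to 0.69 in FG, and none was called. The most negative in L3.6pl, 212254_s_at, was at -1.02 ± 0.268 (adjusted p = 0.0523). The main probe set, 215016_x_at, is of a kind that can hybridise to other transcripts. Probe set 204455_at, which the annotation ties to the RefSeq transcript of BP230, was at 6.02, 6.91 and 7.87 in L3.6pl hypoxia, against 7.27, 8.01 and 7.66 in L3.6pl normoxia. It was at 7.16, 7.09 and 7.42 in FG hypoxia, against 8.16, 7.71 and 6.91 in FG normoxia. Those groups overlapped, with differences of -0.72 ± 0.429 in L3.6pl (adjusted p = 0.409) and -0.38 ± 0.429 in FG (adjusted p = 0.681).

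PLEC encodes plectin, the large linker between integrin β4 and keratin. Its level was 7.62, 8.14 and 7.43 in L3.6pl hypoxia, against 7.28, 7.30 and 6.91 in FG hypoxia. In normoxia it was 7.57, 7.42 and 7.24 in L3.6pl, against 7.62, 7.12 and 6.52 in FG. In hypoxia the L3.6pl arrays were all above the FG arrays, a fold of 1.48 (log2 0.57 ± 0.263, adjusted p = 0.190) that was not called. With the replicate number as a block within each oxygen condition it was called (0.57, adjusted p = 0.0228), and so it was without the 3 arrays with a high actin difference (0.72, adjusted p = 0.0449). Without L3.6pl hypoxia replicate 2 it was 0.36 and not called. The normoxia groups overlapped (0.32 ± 0.263, adjusted p = 0.571). Hypoxia minus normoxia was 0.32 ± 0.263 in L3.6pl (adjusted p = 0.569) and 0.07 ± 0.263 in FG (adjusted p = 0.917), and both PLEC probe sets had positive values in all 4 of these comparisons.

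**Figure D4:**
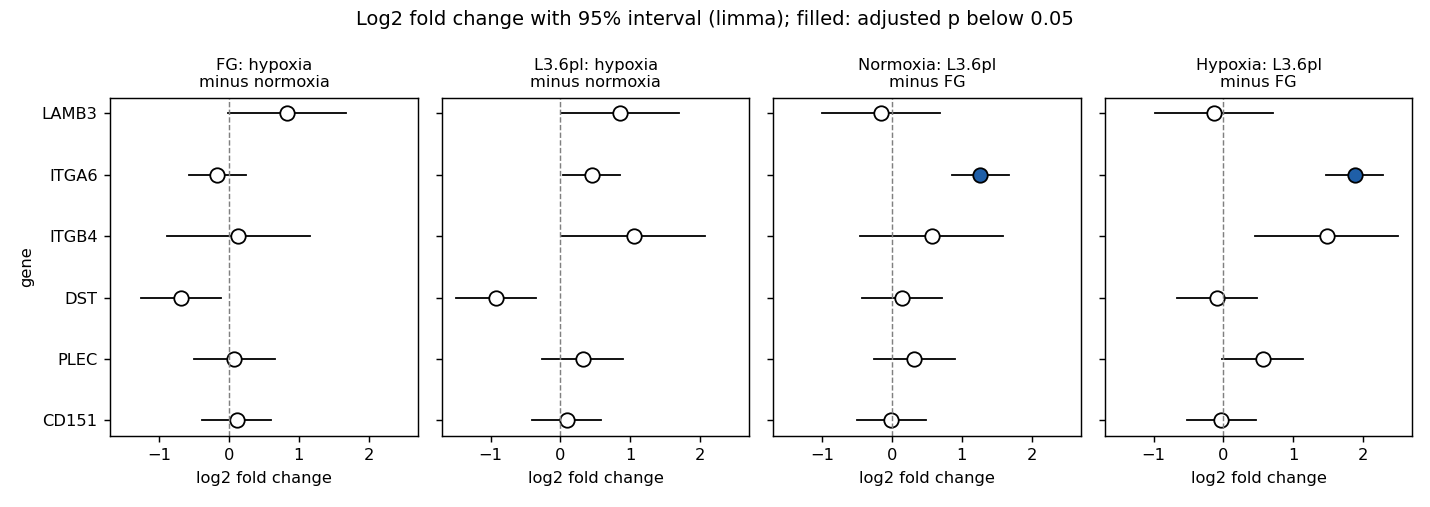
The log2 fold change of each of the 6 genes is shown in each comparison as a point, with the limma 95% interval as a bar and filled markers for genes that were called. Only ITGA6 is filled, in the 2 comparisons of L3.6pl with FG, and DST lies to the negative side in both comparisons of hypoxia with normoxia.

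Set side by side, the arrays were ordered differently from gene to gene. In L3.6pl the arrays of hypoxia and normoxia did not overlap for 3 genes that were higher (LAMB3, ITGA6 and ITGB4) and 1 that was lower (DST), against 11.5% and 12.8% of all genes. In FG they did not overlap for DST alone, which was lower, against 17.1% of all genes. The lines did not overlap in hypoxia for 3 genes, all higher in L3.6pl (ITGA6, ITGB4 and PLEC), against 18.2% of all genes, and in normoxia for ITGA6, against 15% of all genes. The median log2 difference of the 6 was 0.38 for hypoxia in L3.6pl and 0.09 in FG, 0.27 between the lines in hypoxia and 0.23 in normoxia. Over all genes the corresponding medians were -0.02, -0.03, 0.02 and 0.02.

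In normoxia the first replicate was the highest array of its group in both lines for LAMB3, ITGB4, DST and PLEC. In FG it was also the array farthest from its group over all genes, with a root mean square residual of 0.324 on the log2 scale. The part of the actin difference in these levels was not tested beyond the covariate values above. Over the 12 arrays the pair with the smallest root mean square difference between mean-centred log2 values was ITGB4 and PLEC, at 0.518. ITGA6 and ITGB4, the chains of 1 receptor, were at 0.528. The largest difference was that of LAMB3 and ITGA6, at 0.988. This distance also grows with the spread of each gene, so it does not rank pairs by how alike their arrays were ordered. Among the 3688 other genes with an SD of at least 0.5, those closest to ITGA6 (SD 0.866) were TNS4 at 0.114, CLDN1 at 0.173 and PDLIM1 at 0.191.

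For the lists below, the shares of all genes called were 6.86% in L3.6pl and 10.7% in FG for hypoxia against normoxia. Between the lines they were 16.7% in hypoxia and 10.7% in normoxia. Of the 19775 genes, 769 were called higher and 588 lower for hypoxia in L3.6pl, and 838 and 1279 in FG. Between the lines 1982 were called higher and 1328 lower in L3.6pl in hypoxia, and 1020 and 1096 in normoxia. Among the other laminin chains, LAMB1 was lower in L3.6pl in both conditions. Of 8 measured, 2 fell in L3.6pl relative to FG in normoxia: LAMB1 by 1.73 ± 0.375 (adjusted p = 0.0137) and LAMC1 by 0.91 ± 0.242 (adjusted p = 0.0360). In hypoxia 1 was higher in L3.6pl, LAMA2 at 0.70 ± 0.129 (adjusted p = 0.00368), and 1 was lower, LAMB1 at -1.45 ± 0.375 (adjusted p = 0.0224). LAMA5, an α chain of epithelial and endothelial laminins, was not called in any comparison. None of the 8 was called for hypoxia in either line.

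Among the other laminin receptors and integrin partners, ITGA2 and ITGB1 rose in hypoxia in both lines. Of 5 measured, 2 rose in hypoxia in L3.6pl: ITGA2 at 1.34 (adjusted p = 0.00727) and ITGB1 at 0.52 (adjusted p = 0.0111). The same 2 rose in FG: ITGA2 at 1.29 (adjusted p = 0.00575) and ITGB1 at 0.47 (adjusted p = 0.0120). ITGA3, the α chain of another laminin 332 receptor, was higher in L3.6pl than in FG in hypoxia, at 1.43 ± 0.287 (adjusted p = 0.0061). ITGA2, a chain of a collagen and laminin receptor, was also higher in L3.6pl, by 2.07 in hypoxia and 2.03 in normoxia, which made 2 of 5 called in hypoxia and 1 of 5 in normoxia. None of the 5 was called lower.

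Tetraspanins other than CD151 included genes that differed between the lines in both directions. Of 7 measured, 3 were higher and 2 lower in L3.6pl in hypoxia, and 1 was higher and 3 lower in normoxia. TSPAN1 was higher in both conditions, at 1.93 ± 0.219 in hypoxia (adjusted p = 0.000195) and 1.00 ± 0.219 in normoxia (adjusted p = 0.0141). TSPAN14 was lower in both, at -0.91 in hypoxia (adjusted p = 9.34e-05) and -0.65 in normoxia (adjusted p = 0.00114). TSPAN8 was also lower in both, at -1.86 in hypoxia (adjusted p = 0.0271) and -1.80 in normoxia (adjusted p = 0.0426). TSPAN8 was dim, with group means of at most 6.29 against 6.30 for the median gene. For hypoxia against normoxia none of the 7 was called in L3.6pl, and in FG 1 was higher (TSPAN14, 0.47) and 1 lower (CD82, -0.42).

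Inside the cell, plakins anchor keratin filaments. Of 7 keratins measured, none was called for hypoxia in L3.6pl and 1 fell in FG, KRT15 by 1.23 ± 0.346 (adjusted p = 0.0452). Between the lines in hypoxia 2 were higher in L3.6pl (KRT15 at 2.44 ± 0.346 and KRT19 at 0.90 ± 0.116) and 2 lower (KRT8 at -0.84 ± 0.187 and KRT18 at -0.53 ± 0.155). In normoxia KRT19 alone was called, at 0.45 ± 0.116 (adjusted p = 0.0309). KRT5, the partner of KRT14 in basal epithelial cells, was at 12.45 in L3.6pl hypoxia and 12.13 in FG hypoxia, and was not called (0.32 ± 0.188, adjusted p = 0.311). Among 7 actin and focal adhesion links, FERMT1 and FERMT2, the kindlins that activate integrins, were lower in L3.6pl in hypoxia (-0.62 and -1.22) and in normoxia (-0.65 and -0.87), and the other 5 were not called between the lines. For oxygen FERMT2 rose in FG (0.89), and none of the 7 was called in L3.6pl.

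Outside the cell, 12 basement membrane partners and laminin-processing enzymes were measured. In hypoxia against normoxia 1 was higher in L3.6pl (COL4A1, 0.96) and 2 in FG (COL4A1 at 1.53 and COL4A2 at 1.12), and none was lower. Between the lines COL4A6 was higher in L3.6pl, by 1.84 in hypoxia and 1.21 in normoxia. NID2, a nidogen that bridges laminin and collagen networks, was lower, at -2.48 in hypoxia and -1.86 in normoxia. In hypoxia COL4A1 (-0.98) and COL4A2 (-0.87) were also lower in L3.6pl, and the remaining members of the list were not called between the lines.

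Of the transcription factors known to act on these genes, 6 of 8 were measured. In hypoxia 4 rose in L3.6pl: JUN at 2.51, KLF4 at 2.24, FOSL1 at 1.38 and JUNB at 1.30. In FG 5 rose, which were the same 4, with KLF4 at 3.46, JUN at 2.78, JUNB at 2.10 and FOSL1 at 0.89, and SNAI2. JUN, JUNB and FOSL1 are subunits of AP-1. FOSL1 was also higher in L3.6pl than in FG, at 1.90 in hypoxia and 1.41 in normoxia, while JUN was lower in hypoxia, at -0.98. In none of these lists was the difference between the lines in the hypoxia change called for any gene.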

How the data were processed

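The authors deposited 1 table of linear intensities for 54675 probe sets on 12 arrays. Per the submitters' processing notes they used RMA, with no version named and no account of the return to a linear scale. The median intensity of an array was 39.1 to 41.4, and the values were not normalized again. Here log2 was taken, 62 control probe sets were left out, and genes were named from GEO's platform annotation: 41091 probe sets name 1 gene, 1801 several and 11721 none. Each gene was measured by its brightest probe set over the 12 arrays. The number of arrays limits the precision.

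A group-mean model was fitted with limma 3.58.1 in R 4.3.3 (lmFit, contrasts.fit and eBayes) to all 12 arrays. Benjamini-Hochberg adjustment ran over all 19775 genes, or over all probe sets where they are given singly, and calls are at 0.05. Intervals are 95% intervals of that fit. The code was tested on simulated data.

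All members are named. From each companion list the text draws on up to 4 called genes (smallest adjusted p) and up to 2 uncalled ones (highest mean). Members and lists were chosen with earlier results of these data known. Promoter letters are RefSeq's (GRCh38.p14).

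The labels give no pairing of arrays. Equal replicate numbers went with correlated deviations between the lines in hypoxia (0.358 to 0.462) and in normoxia (0.528 to 0.735). Unequal numbers reached at most 0.179 and 0.262 there. Between hypoxia and normoxia the correlations of equal numbers were -0.04 to 0.413 in L3.6pl and -0.217 to 0.259 in FG. Unequal numbers reached 0.403 and 0.416, so equal numbers did not stand out across oxygen. The alternatives tried were other scalings and filters, other summaries of probe sets, other variance models, array weights, the replicate block, fewer arrays, and the actin difference as a covariate.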

Additional observations from a re-analysis of the deposited data

How the results depend on the processing

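The number of arrays and the spread among the FG normoxia arrays limit these results. ITGA6 was called between the lines in all 24 alternatives, at 1.72 to 2.02 in hypoxia and 1.11 to 1.49 in normoxia. For hypoxia in L3.6pl LAMB3 was called in 3 of 23 alternatives, ITGB4 in 4 and DST in 7, and in FG LAMB3 in 3, ITGB4 in 1 and DST in 1. ITGB4 was called between the lines in 11 of 24 alternatives in hypoxia and 3 in normoxia, and PLEC in 2 in hypoxia. Replicate blocks ended no call of the 6 genes. The block within each oxygen condition and the actin covariate were chosen after seeing the data. The 3 arrays left out together were likewise picked by values of these arrays, not by the labels. The causes of the changes were not tested.

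The 6 genes had 0 calls for hypoxia in L3.6pl, 0 in FG, 1 between the lines in hypoxia, 1 in normoxia and 0 for the difference of hypoxia changes. In L3.6pl the count was 1 with dim genes left out, with probe sets averaged or with the actin covariate, and 3 with array weights or without the 3 arrays with a high actin difference. In FG and between the lines in normoxia it was 2 with array weights or without the 3 arrays. Between the lines in hypoxia it was 2 with median centring, the dim filter, the mean of probe sets, robust moderation, array weights, the replicate block or only the arrays compared, and 3 without the 3 arrays or with the block within each oxygen condition. Leaving out 1 array in turn gave 0 to 3 in L3.6pl, 0 to 1 in FG, and 1 to 2 between the lines in either condition. The number of all genes called also moved with the setting, as given below.

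Over all genes 1357 were called for hypoxia in L3.6pl, 2117 in FG, 3310 between the lines in hypoxia, 2116 in normoxia and 5 for the difference of hypoxia changes. With every probe set singly these were 2454, 4699, 5705, 3487 and 26. With dim genes left out they were 1290, 1952, 2673, 1600 and 4, from fewer genes tested, so the share called was higher than these counts alone show. With median centring 3147 were called between the lines in hypoxia. With array weights they were 5192 in L3.6pl, 5729 in FG, 6623 between the lines in normoxia and 421 for the difference. Without the 3 arrays they were 4179, 3871 and, for the difference, 19. With the replicate block L3.6pl had 2130 and the difference 13, and with only the arrays compared L3.6pl had 797. With the paired block within each oxygen condition the counts were 5935 in hypoxia, 4576 in normoxia and 703 for the difference. With the actin covariate L3.6pl had 2041 and the difference 3. The difference had 12 with cyclic loess, 13 with the mean of probe sets and 10 with robust moderation. Leaving out 1 array gave 508 to 2436 in L3.6pl, 1029 to 2899 in FG, 2142 to 3813 between the lines in hypoxia, 1254 to 2626 in normoxia and 2 to 23 for the difference.

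Some uncalled values changed sign. CD151 was at -0.11 in L3.6pl hypoxia with array weights and at -0.27 without the 3 arrays, at -0.034 in FG without the 3 arrays, at 0.019 between the lines in normoxia with the actin covariate, and at 0.0042 for the difference with median centring. LAMB3 between the lines in normoxia was at 0.051 with array weights and 0.084 without the 3 arrays, and for the difference at -0.25, -0.22 and -0.33 with array weights, without the 3 arrays and with the actin covariate. ITGA6 in FG was at 0.058 without the 3 arrays. Leaving out 1 array gave, for hypoxia in FG, ITGA6 -0.32 to 0.058, ITGB4 -0.35 to 0.78, PLEC -0.21 to 0.34 and CD151 -0.034 to 0.24, and for hypoxia in L3.6pl CD151 -0.16 to 0.26. Between the lines it gave, in hypoxia, DST -0.29 to 0.15 and CD151 -0.28 to 0.14, and in normoxia LAMB3 -0.44 to 0.36, DST -0.065 to 0.41 and CD151 -0.15 to 0.12. For the difference it gave LAMB3 -0.50 to 0.31, DST -0.50 to 0.0066, PLEC -0.023 to 0.53 and CD151 -0.27 to 0.15.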
